A study of Homo sapiens with 6 samples.

Results

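The early genes described here are EGR1, EGR2 and EGR3, NR4A1, NR4A2 and NR4A3, KLF2, KLF4 and KLF6, and IER3, 10 genes of the 57773 on primary chromosomes in the count table. They were taken by symbol, through the Ensembl identifier of each row, and no measured value served as a cut-off. The choice was made with earlier results of these libraries known. Their mRNA was measured by RNA-Seq in wild-type RPMI8226, a cell line from a human multiple myeloma, kept for 6 hr with either of 2 recombinant proteins at 100 nM. In GST-PTR1, a domain named PTR1 from HAPLN1, a protein of the extracellular matrix, is joined to glutathione-S-transferase (GST). The control was GST alone. Each treatment had 3 libraries from separate biological replicates, 6 in all. Only 1 cell line and 1 time were sampled, with no untreated cells and no earlier time, so the values are levels 6 hr after the proteins were added and not the course of a response. In such bulk samples, fewer cells that express a gene and less of its mRNA per cell cannot be told apart.

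Immediate early genes are switched on by signals that act on transcription factors already present in the cell, so their transcription needs no new protein synthesis. Their mRNAs are usually short-lived, and a typical induction by serum or a growth factor is brief. The ERK kinases and serum response factor with its ELK partners drive many of them, and others answer to cAMP, calcium or NF-κB. EGR proteins are zinc finger activators, NR4A proteins are orphan nuclear receptors controlled by their amount rather than by a known hormone, KLF proteins are zinc finger factors that bind GC-rich promoters, and IER3 (also called IEX-1) is a small protein known for effects on cell survival.

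The sequences upstream of the starts of EGR1, EGR2, NR4A3 and KLF2 are shown because EGR1 and KLF2 fell while EGR2 and NR4A3 rose, and the windows of EGR1 and EGR2 hold the same kinds of elements. They come from RefSeq on build GRCh38.p14, a build other than that of the counts, and each holds the 250 bases before an annotated start, 5′ to 3′ on the strand of the gene. Of the 10 genes, 7 were in that table, with 10 starts between them. EGR3, NR4A2 and IER3 were not in it, so their upstream sequences were not searched. Capitals mark the CArG box, the element bound by serum response factor, and TGACG, the core of the cAMP response element, in EGR1, EGR2 and NR4A3, and the MEF2 motif in KLF2. For EGR2, which has several starts in the table, the start with these elements is shown, so its likeness to EGR1 follows from that choice. The other EGR2 starts had neither a CArG box nor TGACG.
EGR1 (chr5:138465229-138465478, plus strand): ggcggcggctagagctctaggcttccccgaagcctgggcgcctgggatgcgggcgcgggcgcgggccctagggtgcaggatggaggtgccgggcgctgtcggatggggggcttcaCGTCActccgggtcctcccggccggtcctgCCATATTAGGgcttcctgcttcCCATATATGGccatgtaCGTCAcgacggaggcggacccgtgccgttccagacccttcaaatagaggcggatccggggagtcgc
EGR2 (chr10:62816367-62816616, minus strand): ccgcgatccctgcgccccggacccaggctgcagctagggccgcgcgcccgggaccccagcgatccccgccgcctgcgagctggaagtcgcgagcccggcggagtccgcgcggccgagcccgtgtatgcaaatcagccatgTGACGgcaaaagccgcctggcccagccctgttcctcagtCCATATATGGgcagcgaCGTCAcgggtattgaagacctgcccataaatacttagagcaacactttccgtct
NR4A3 (chr9:99821635-99821884, plus strand): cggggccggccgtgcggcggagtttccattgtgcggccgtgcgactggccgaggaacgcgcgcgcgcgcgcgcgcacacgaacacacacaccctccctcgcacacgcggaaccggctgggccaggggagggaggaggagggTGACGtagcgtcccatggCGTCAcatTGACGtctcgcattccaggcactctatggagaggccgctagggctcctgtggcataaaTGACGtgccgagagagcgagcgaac
KLF2 (chr19:16324576-16324825, plus strand): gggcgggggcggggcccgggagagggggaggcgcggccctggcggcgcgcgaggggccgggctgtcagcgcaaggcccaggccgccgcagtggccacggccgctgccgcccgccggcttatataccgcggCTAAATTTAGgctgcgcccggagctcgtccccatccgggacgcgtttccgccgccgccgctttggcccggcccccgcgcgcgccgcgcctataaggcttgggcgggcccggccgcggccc

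Both strands were searched for these letters, and a match is a description, not a bound site. The EGR1 window had 2 CArG boxes, from -105 to -96 and from -83 to -74 relative to the start, and the EGR2 window had 1, from -71 to -62. A CArG box was found in 1.16% of the 35116 windows of the same length. TGACG occurred 4 times upstream of NR4A3, and 2 times each upstream of EGR1, EGR2 and KLF4, and was present in 21.2% of all windows. The MEF2 motif of KLF2, from -120 to -111, was present in 2.80% of windows. The NF-κB motif was found in 9.96% of windows and, among the 7 genes searched, upstream of another start of EGR2. IER3 was not among those 7. The Sp1 motif GGGCGG was found upstream of 5 of the 7 genes and in 42.6% of windows. A gene was counted if any of its starts held the motif, whereas each window is a single start, so these shares are not like for like. The EGR motif GCGTGGGCG was upstream of none of the 7 genes and in 0.721% of windows.

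The libraries held 15202503, 20077280 and 23453473 counts with GST and 22874133, 28837431 and 44688737 with GST-PTR1, and values below are given in this order. CPM is a gene's count scaled to a total of 1000000 counts. At these totals the 3 counts taken as the limit of detection were worth between 0.0671 and 0.197 CPM, a limit that covers counting error only. The 8 plasma cell markers summed to between 1861 and 2509 CPM with GST and between 1557 and 1830 CPM with GST-PTR1. Of these, PRDM1 and SLAMF7 were higher and SDC1, TNFRSF17 and XBP1 lower with GST-PTR1 in edgeR's quasi-likelihood test. The sums were from 1.88 to 2.50 CPM for 4 B cell markers, from 0.767 to 1.91 for 4 monocyte markers and from 0.263 to 0.512 for 4 stromal markers. For 4 T cell markers they were from 5.33 to 5.63 CPM with GST and from 2.64 to 3.37 with GST-PTR1. CD2, COL1A2, COL3A1 and DCN were at 0 counts in all 6 libraries, and CD22, CD3D, CD3E and LYZ were at 3 counts or fewer in each. CD8A was lower (log2 fold change -0.70) and FCGR1A higher (1.22) with GST-PTR1, and their part in the results was not tested.

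The early genes did not move together. With GST-PTR1, IER3, EGR2, NR4A3 and KLF6 were higher, and EGR1, NR4A1, NR4A2 and KLF2 were lower. EGR3 and KLF4 were at 3 counts or fewer in every library, so no fold is given for them. Differences were tested with edgeR's quasi-likelihood test on the counts, scaled by TMM factors, with Benjamini-Hochberg adjustment over the 16926 genes tested. Fold changes come from this fit. They differ from the ratios of the mean CPM values, which use library totals. Of the 10 genes, 8 passed the filter on low counts and all of these 8 had an adjusted p under 0.05, beside 20.6% of all genes tested. The 4 higher genes stand beside 9.15% of all genes called higher, and the 4 lower genes beside 11.4% called lower. When only library totals were used for scaling, the split over all genes moved from 1549 higher and 1937 lower to 927 and 3795, and the early genes kept theirs. Of the higher genes, 3 passed 2-fold (EGR2, NR4A3, IER3), beside 3.68% of all genes, and so did 3 of the lower genes (EGR1, NR4A1, KLF2), beside 3.85%. The median log2 fold change of the 8 genes was 0.02, and that of all genes tested was 0.01. The genes were chosen with earlier results of these libraries known. EGR2 passed the filter only through its GST-PTR1 libraries, and EGR1 would not have passed without its GST libraries. The counts of called genes are therefore a description.

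**Figure D1:**
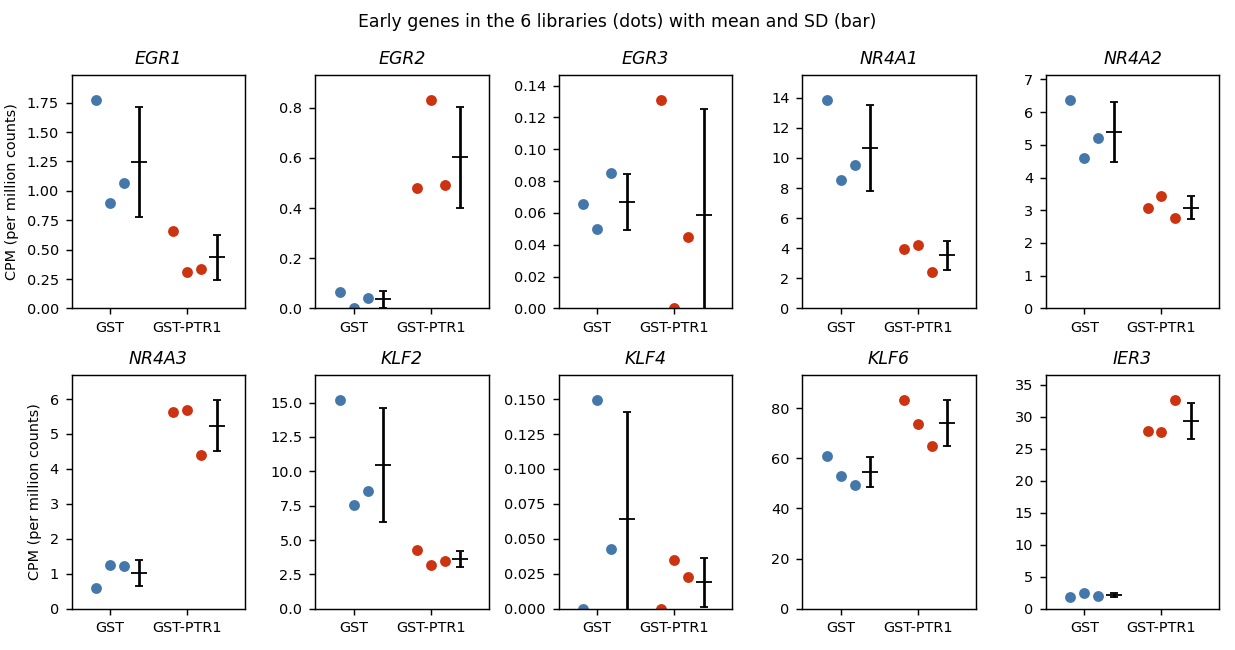
Level of each of the 10 early genes in CPM (vertical axis, linear, from 0, its own scale per gene) in the 3 GST libraries (blue dots) and the 3 GST-PTR1 libraries (red dots), with the mean and SD as a bar. EGR2, NR4A3, KLF6 and IER3 lie higher in every GST-PTR1 library, EGR1, NR4A1, NR4A2 and KLF2 lie lower, and EGR3 and KLF4 stay at 3 counts or fewer throughout.

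Among the EGR genes, EGR1 fell and EGR2 rose. EGR1 (ENSG00000120738, GRCh37 chromosome 5 from 137801179 to 137805004, plus strand) is the member of the family induced by serum in most cell types. Its CPM was 1.78, 0.897 and 1.07 with GST and 0.656, 0.312 and 0.336 with GST-PTR1. These levels rest on few reads, from 18 to 27 counts with GST and from 9 to 15 with GST-PTR1, and the 2 sets of libraries did not overlap in CPM. The mean fell from 1.25 ± 0.467 to 0.435 ± 0.192 CPM (SD, n = 3 each). The log2 fold change was -1.34 (SE 0.37, 95% interval -2.15 to -0.53, adjusted p = 0.0255 in edgeR's quasi-likelihood test). In edgeR's test the call was lost without the GST library of 15202503 counts (-1.06, adjusted p = 0.0763) or of 23453473 counts (-1.43, 0.0594). It was also lost without the GST-PTR1 library of 28837431 (-1.17, adjusted p = 0.0911 in edgeR's test) or 44688737 counts (-1.19, adjusted p = 0.0911), and after thinning to the smallest total.

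EGR2 (ENSG00000122877, GRCh37 chromosome 10 from 64571756 to 64679660, minus strand) is known from hindbrain patterning and myelination and as a regulator of lymphocyte activation. It was found with 1, 0 and 1 counts with GST and with 11, 24 and 22 with GST-PTR1. In CPM these were 0.0658, 0 and 0.0426 against 0.481, 0.832 and 0.492. EGR2 was thus near absent from the GST libraries and low but measurable in all 3 GST-PTR1 libraries. Over the summed libraries the ratio of CPM was 17.4, and the 2 counts with GST leave it a 95% exact binomial interval from 4.59 to 147, which covers counting error only. The fitted log2 fold change was 4.14 (SE 0.65, adjusted p = 0.00116 in edgeR's quasi-likelihood test), a value that depends on how the fit treats the near-empty GST libraries.

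EGR3 (ENSG00000179388, GRCh37 chromosome 8 from 22545172 to 22550815, minus strand) is known for its part in muscle spindle development and lymphocyte tolerance. It had 1, 1 and 2 counts with GST and 3, 0 and 2 with GST-PTR1, and a difference was not detectable at this depth. RPKM divides CPM by the exon length in kilobases, so that levels of different genes can be set side by side. That length covers the exons of all annotated transcripts. For NR4A1 it is 7290 bases, beside 3511 in its longest protein-coding transcript. Levels and shares compared between genes depend on this length. In RPKM, EGR1 made up 94.5 ± 2.23% of the summed EGR level with GST and 43.5 ± 13.2% with GST-PTR1. EGR2 made up 2.04 ± 1.77% and 52.8 ± 16.9%. The family sum itself was low, 0.421 ± 0.157 RPKM with GST and 0.314 ± 0.0592 with GST-PTR1 (two-sided exact permutation p = 0.4, n = 3 each).

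The NR4A genes are close relatives, and with GST-PTR1 NR4A1 and NR4A2 were lower while NR4A3 was higher. NR4A1 (Nur77, ENSG00000123358, GRCh37 chromosome 12 from 52416616 to 52453291, plus strand) is known for induction by antigen receptor signals in lymphocytes. Its CPM was 13.9, 8.52 and 9.51 with GST and 3.93, 4.23 and 2.42 with GST-PTR1. Each GST library was above each GST-PTR1 library, and the mean fell from 10.6 ± 2.85 to 3.53 ± 0.973 CPM. The log2 fold change of NR4A1 was -1.41 (SE 0.23, 95% interval -1.91 to -0.91, adjusted p = 0.00144 in edgeR's quasi-likelihood test), a level 2.66-fold lower.

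NR4A2 (Nurr1, ENSG00000153234, GRCh37 chromosome 2 from 157180944 to 157198860, minus strand) is needed for midbrain dopamine neurons and is also an early gene in immune cells. Its CPM was 6.38, 4.58 and 5.20 with GST and 3.06, 3.43 and 2.75 with GST-PTR1. The libraries of the treatments did not overlap, and the mean went from 5.39 ± 0.913 to 3.08 ± 0.341 CPM. The difference was the smallest among the 4 lower genes, a log2 fold change of -0.60 (SE 0.18, adjusted p = 0.0362 in edgeR's quasi-likelihood test). In 5 of the 6 fits that left out a library the adjusted p of NR4A2 in edgeR's test was above 0.05, from 0.0695 to 0.112, with log2 fold changes from -0.67 to -0.49. Those were the fits without the GST libraries of 15202503 or 23453473 counts or without any of the GST-PTR1 libraries.

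NR4A3 (Nor1, ENSG00000119508, GRCh37 chromosome 9 from 102584137 to 102629173, plus strand) is the third member and shares with the others its DNA-binding preference. It had 0.592, 1.25 and 1.24 CPM with GST and 5.64, 5.69 and 4.39 CPM with GST-PTR1. The GST values rest on few reads, 9, 25 and 29 counts, beside 129, 164 and 196 with GST-PTR1. The lowest GST-PTR1 library was above the highest GST library, and the mean rose from 1.02 ± 0.375 to 5.24 ± 0.738 CPM. Its log2 fold change was 2.49 (SE 0.25, 95% interval 1.93 to 3.05, adjusted p = 5.25e-05 in edgeR's quasi-likelihood test), or 5.60-fold higher.

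Ratios of these genes within a library do not depend on how libraries are scaled. They were computed per kilobase of exon, after the levels had been seen, and are descriptions. The ratio of NR4A3 to NR4A1 was 0.0492, 0.169 and 0.150 with GST and 1.65, 1.55 and 2.10 with GST-PTR1. It was 16.3-fold higher on the geometric mean, and from 11.01-fold to 20.4-fold with any library left out. Per kilobase of exon, NR4A3 was therefore the least abundant of the 3 genes in every GST library and above NR4A1 in every GST-PTR1 library. The order of NR4A3 and NR4A1 with GST-PTR1 depends on the exon lengths used, 7290 bases for NR4A1 and 6314 for NR4A3. Their longest protein-coding transcripts have 3511 and 5706 bases. The fold between treatments does not depend on gene length. Against NR4A2 the ratio of NR4A3 was 9.33-fold higher, from 0.126 ± 0.0597 to 1.07 ± 0.0815, and that of NR4A2 to NR4A1 was 1.74-fold higher, from 0.946 ± 0.0883 to 1.67 ± 0.367.

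As shares of the summed NR4A level in RPKM, NR4A1 went from 48.5 ± 3.71% with GST to 22.8 ± 3.08% with GST-PTR1 and NR4A2 from 45.7 ± 1.03% to 37.4 ± 2.71%. NR4A3 went from 5.80 ± 2.80% to 39.8 ± 1.20%. The sum over the 3 genes was 2.98 ± 0.562 RPKM with GST and 2.09 ± 0.328 RPKM with GST-PTR1. The sums did not overlap, at the smallest p that an exact two-sided permutation test of 3 libraries against 3 allows, 0.1. With TMM-scaled totals they overlapped, at 2.78 ± 0.462 and 2.23 ± 0.266 RPKM (exact permutation p = 0.2). The shares in RPKM thus differed between treatments without overlap for each gene, while the difference in the sum depended on the scaling. Shares and sums also rest on the exon lengths used, and other lengths were not tried.

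**Figure D2:**
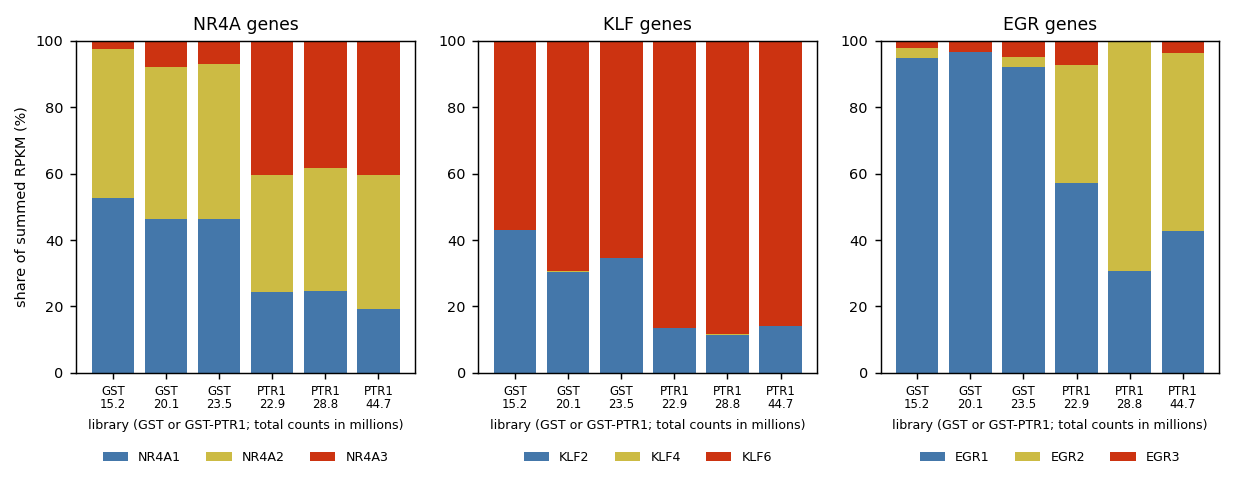
Share of the summed RPKM (vertical axis, percent) held by each NR4A, KLF and EGR gene in each library, labelled by its treatment and total counts (in units of 1000000). NR4A3 goes from 2.60% to 7.82% of the NR4A level in the GST libraries to between 38.4% and 40.5% in the GST-PTR1 libraries, KLF6 takes a larger share of the KLF level with GST-PTR1, and the EGR shares rest on few counts.

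Of the Krüppel-like factors, KLF2 was lower and KLF6 higher with GST-PTR1. KLF2 (ENSG00000127528, GRCh37 chromosome 19 from 16435628 to 16438685, plus strand) is known for keeping lymphocytes quiescent and for the expression of homing receptors. Its CPM was 15.2, 7.57 and 8.57 with GST and 4.24, 3.16 and 3.47 with GST-PTR1. The treatments did not overlap, and the GST libraries were spread more widely, with means of 10.4 ± 4.14 and 3.62 ± 0.558 CPM. KLF2 had a log2 fold change of -1.32 (SE 0.24, 95% interval -1.85 to -0.78, adjusted p = 0.00338 in edgeR's quasi-likelihood test), or 2.49-fold lower. Without the GST library of 15202503 counts, which was its highest, the log2 fold change was -0.98 and still called (adjusted p = 0.00201 in edgeR's test).

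KLF6 (ENSG00000067082, GRCh37 chromosome 10 from 3818188 to 3827473, minus strand) is expressed in most tissues and is known as a growth regulator. Its CPM was 61.0, 52.7 and 49.5 with GST and 83.3, 73.5 and 64.9 with GST-PTR1. Every GST-PTR1 library was higher, though by a modest amount, and the mean rose from 54.4 ± 5.95 to 73.9 ± 9.19 CPM. The log2 fold change of KLF6 was 0.64 (SE 0.11, 95% interval 0.39 to 0.88, adjusted p = 0.00212 in edgeR's quasi-likelihood test), or 1.55-fold. KLF4 (ENSG00000136826, GRCh37 chromosome 9 from 110247133 to 110252763, minus strand), known from epithelial differentiation and pluripotency, had 0, 3 and 1 counts with GST and 0, 1 and 1 with GST-PTR1, so that no difference could be detected.

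The ratio of KLF6 to KLF2 per kilobase was 1.32, 2.29 and 1.90 with GST and 6.46, 7.65 and 6.15 with GST-PTR1, 3.75-fold higher (3.22-fold to 4.25-fold with any library left out). KLF2 went from 35.9 ± 6.53% to 13.0 ± 1.27% of the summed level of the 3 KLF genes and KLF6 from 63.9 ± 6.37% to 87.0 ± 1.25%. The sum was 14.1 ± 2.96 RPKM with GST and 13.8 ± 1.70 RPKM with GST-PTR1 (two-sided exact permutation p = 0.8). With TMM-scaled totals it was 13.1 ± 2.47 and 14.8 ± 1.15 RPKM (exact permutation p = 0.3), so the direction of this small difference depended on the scaling.

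IER3 (ENSG00000137331, GRCh37 chromosome 6 from 30710976 to 30712331, minus strand), known as a target of NF-κB, had the largest well-measured change of the 10 genes. Its CPM was 1.84, 2.44 and 1.96 with GST and 27.7, 27.6 and 32.6 with GST-PTR1, from 28 to 49 counts against 634 to 1458. The libraries within each treatment lay close together and far from those of the other treatment. The mean was 2.08 ± 0.317 CPM with GST and 29.3 ± 2.87 CPM with GST-PTR1. The gene's log2 fold change came to 4.01 (SE 0.18, 95% interval 3.62 to 4.40, adjusted p = 7.55e-08 in edgeR's quasi-likelihood test), or 16.1-fold. By size of the log2 fold change IER3 was number 99 among the increases of the 16926 genes tested, EGR2 number 92 and NR4A3 number 190. For each of the 8 tested genes the exact two-sided permutation test over libraries gave p = 0.1, the smallest it can give with 3 against 3. All 8 were without overlap between treatments in CPM, as were 43.1% of all genes tested in either direction.

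**Figure D3:**
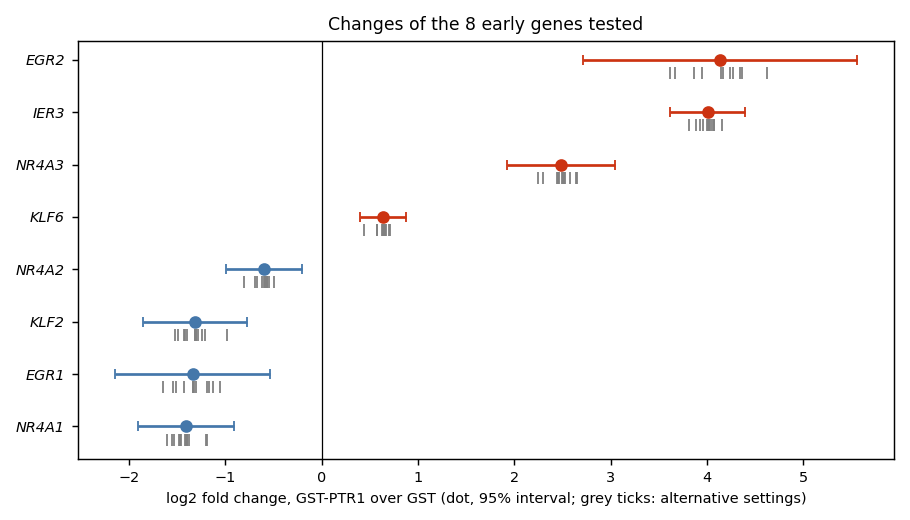
Log2 fold change of GST-PTR1 over GST (horizontal axis) for the 8 early genes tested, with the 95% interval (bar) and the values under the alternative settings (grey ticks). IER3, EGR2, NR4A3 and KLF6 lie above 0 and NR4A2, KLF2, EGR1 and NR4A1 below 0 under every setting shown, and the position of EGR2 rests on 2 counts in the GST libraries.

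The order of the levels changed with the treatment. With GST, KLF6 was highest at 8.87 RPKM, followed by KLF2 at 5.18 RPKM. IER3, NR4A1 and NR4A2 came next at 1.53, 1.46 and 1.36 RPKM and overlapped between libraries, so that their order was not resolved. EGR1 at 0.397 and NR4A3 at 0.162 RPKM followed, each apart from its neighbours, and KLF4, EGR3 and EGR2 lay at or under 0.0181 RPKM without separation. With GST-PTR1, IER3 was highest at 21.6 RPKM, above KLF6 at 12.04 and KLF2 at 1.79 RPKM. NR4A3 at 0.830 and NR4A2 at 0.777 RPKM overlapped, NR4A1 was below them at 0.484 RPKM, EGR2 at 0.163 and EGR1 at 0.138 RPKM overlapped, and EGR3 and KLF4 were lowest. The order and its overlaps were the same with TMM-scaled totals. Other gene lengths were not tried, and the place of NR4A1 depends on the length used. Among all genes tested, the mean RPKM of IER3 went from percentile 26.8 with GST to percentile 83.3 with GST-PTR1, while KLF2 went from 52.6 to 33.9.

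The GST library of 15202503 counts stood apart within its group for several of these genes. It was the highest of the GST libraries for EGR1, NR4A1, NR4A2, KLF2 and KLF6 and the lowest for NR4A3 and IER3. For EGR1, NR4A1, NR4A2 and KLF2 the fold changes were nearer to 0 without it, with log2 values of -1.06, -1.20, -0.49 and -0.98 in edgeR's fit. It was also the shallowest library, and the part of depth in this was not tested.

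Partners, relatives and pathway genes were taken from 8 lists of 59 matched genes, of which 48 could be tested. Of these 48 genes, 8 were higher, 11 lower and 29 not called in edgeR's quasi-likelihood test, with a median log2 fold change of -0.01. Of all 16926 genes tested, 9.15% were higher and 11.4% lower, with a median of 0.01. A 2-fold change was reached by 6 higher and 3 lower genes of the lists, beside 3.68% and 3.85% of all genes. NAB2, a corepressor that binds EGR proteins, fell from 4.03 ± 0.677 to 1.27 ± 0.324 CPM (log2 fold change -1.50, adjusted p = 0.00109 in edgeR's test), in the same direction as EGR1. Its relative NAB1 had a log2 fold change of -0.13 (95% interval -0.39 to 0.13) and was not called. EGR4 and WT1 were not tested. RXRA, a retinoid receptor with which NR4A1 and NR4A2 can pair, was lower (-0.69), RXRB was not called (-0.28, 95% interval -0.58 to 0.03), and RXRG was not tested.

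Of 9 other KLF genes tested, 1 was higher and 3 were lower, beside 9.15% and 11.4% of all genes, and 5 were not called. KLF7, a KLF known from neurons and the immune system, fell from 22.98 ± 4.95 to 9.79 ± 2.52 CPM (log2 fold change -1.04, adjusted p = 0.00295 in edgeR's test), and KLF10 (-0.45) and KLF15 (-0.65) fell by less. KLF3, a repressor of the family, rose by 0.67 on the log2 scale. Among genes named like IER3 as immediate early response genes but unrelated to it in sequence, IER5 rose from 50.1 ± 2.39 to 131 ± 10.5 CPM (1.59, adjusted p = 7.18e-07 in edgeR's test), IER2 fell (-0.69) and IER5L was not called (-0.62, 95% interval -1.15 to -0.10, adjusted p = 0.0871 in edgeR's test). ITGB7, a homing receptor linked to KLF2 in lymphocytes, was not called, with a log2 fold change of -0.13 (95% interval -0.68 to 0.42), and S1PR1 was not tested.

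Genes of the pathways that drive early genes were called lower or not at all, beside 11.4% of all genes called lower and 9.15% higher. Of 6 serum response factor genes, MRTFB was lower (-0.49, adjusted p = 0.0460 in edgeR's test; 8.51% of its exon bases are shared with another gene on the same strand) and 5 were not called, among them SRF itself (0.17, 95% interval -0.22 to 0.56). Of 11 genes of the ERK module, none was higher, and MAPK3 (-0.52), RPS6KA1 (-0.48) and RPS6KA2 (-0.75) were lower, which encode the kinase ERK1 and RSK kinases that ERK activates. These are mRNA levels, and the activity of the kinases was not measured.

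The other early genes contained most of the large increases. Of 13 tested, 6 were higher and 1 was lower, beside 9.15% and 11.4% of all genes, and 6 were not called. Their median log2 fold change was 0.96, beside 0.01 for all genes tested. SGK1, a kinase induced by serum and glucocorticoids, rose from 9.17 ± 1.68 to 132 ± 7.28 CPM (log2 fold change 4.03, adjusted p = 3.23e-08 in edgeR's test). ATF3, a stress-induced transcription factor, rose from 13.3 ± 1.57 to 66.8 ± 3.18 CPM (2.52), and PLK3, a polo-like kinase, from 45.5 ± 3.23 to 193 ± 11.6 CPM (2.28). GADD45B, a stress protein known as an NF-κB target, rose from 25.9 ± 2.86 to 95.3 ± 5.11 CPM (2.08), and PPP1R15A, which recruits the phosphatase of eIF2-alpha, from 7.64 ± 0.685 to 13.9 ± 0.404 CPM (1.06). RHOB, a small GTPase, fell from 30.5 ± 4.39 to 9.18 ± 1.06 CPM (-1.54). PHLDA1 rose by 0.96 on the log2 scale, while CCN2, BTG2, ARC, TRIB1, CSRNP1 and MAFF were not called, with log2 fold changes from -0.21 (TRIB1) to 1.23 (CCN2, adjusted p = 0.0753 in edgeR's test).

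**Figure D4:**
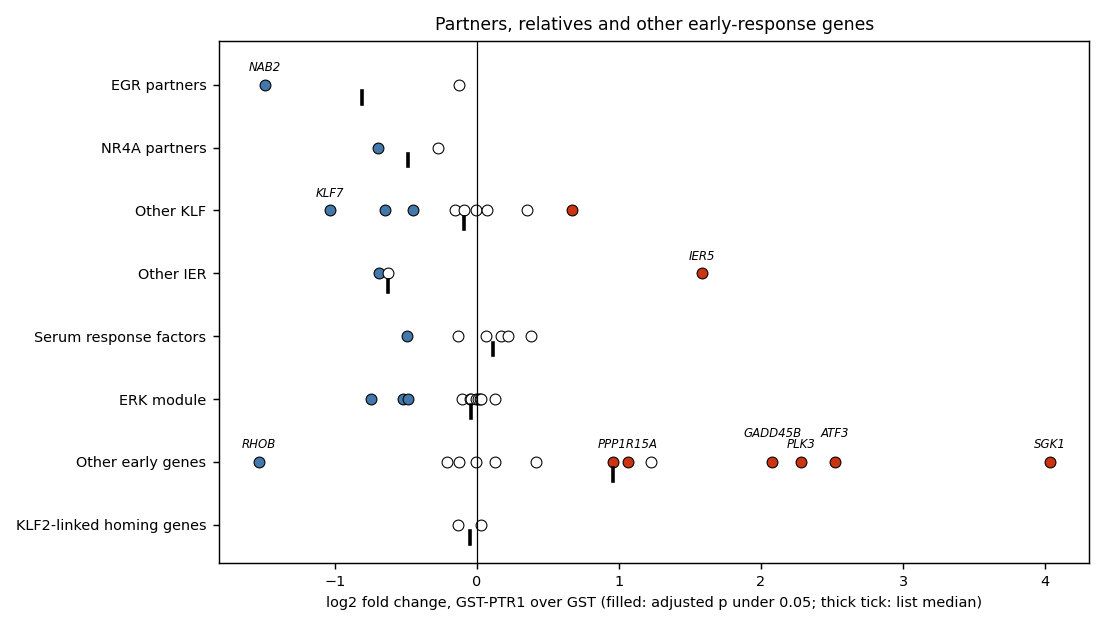
Log2 fold change of GST-PTR1 over GST (horizontal axis) for the 48 related genes tested, by list, with filled circles for an adjusted p under 0.05 (red higher, blue lower), open circles for the others and a thick tick for the median of the list. SGK1 at 4.03 lies farthest to the right, RHOB at -1.54 and NAB2 at -1.50 farthest to the left, and most genes of the ERK module and the serum response factors lie near 0.

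The genes most like 4 of the early genes across libraries were found by Pearson's r of log2 CPM over the 6 libraries among 13354 genes with a mean count of at least 50. With 2 treatments of 3 libraries each, such an r is set mainly by the difference between treatments, and it is given as a description. BIN2 (0.996) and DHRS4-AS1 (0.996) were nearest to EGR1, MEGF9 and ATP8B2 (0.999 each) to NR4A1, and GOLGA1 (0.996) and FAM171A2 (0.995) to KLF2. TNFRSF9 (1.000) and BATF (0.999) were nearest to IER3. An r above 0.99 was found with 169 genes for IER3, 60 for NR4A1, 19 for EGR1 and 11 for KLF2.

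The median span of the 10 genes in the GRCh37 annotation was 7.47 kb, beside 19.1 kb for all genes tested, and their exons formed a median of 5 blocks, beside 8. IER3 was the shortest, with 1 exon block over 1.36 kb. EGR2 had the longest span, 108 kb, and NR4A1 (36.7 kb) and NR4A3 (45.04 kb) were also above the median of all genes. A span runs from the first to the last exon of all annotated transcripts of a gene, and can exceed that of any single transcript. The median exon length was 3828 bases, beside 3685 for all genes tested. None shared exon bases with another gene on the same strand. ATTTA, the core of AU-rich elements found in many short-lived mRNAs, was counted over the longest protein-coding transcript of each gene in GENCODE 29. IER3 had 6 in 1350 bases, or 4.44 per kb, above 98.9% of the 11826 genes tested with such a transcript. The other 9 genes had between 0.637 and 1.93 per kb, beside a median of 1.03, with NR4A3 highest among them at 11 occurrences. The genes that fell and those that rose overlapped in this count, with NR4A1 at 1.42, KLF2 at 1.49 and KLF6 at 1.29 per kb. The highest values, of IER3 and NR4A3, belonged to genes that rose. EGR2 also rose and had 0.674 per kb, close to the lowest value, 0.637 for EGR1, which fell. The count covers the whole transcript and not its 3′ untranslated part alone, and a link to mRNA decay was not tested.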

How the data were processed

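RNA-Seq was performed on RPMI8226 cells with 3 libraries per treatment, made with a stranded mRNA kit per the labels. The authors deposited raw counts of reads per gene from featureCounts 1.5.0-p1, with Ensembl release 75 annotation of GRCh37 and the reverse-strand setting (2), unnormalized. The submitters' processing notes also name FastQC, Subread and limma, and the aligner's version is not given in the sources used here. Libraries were assigned to a treatment by column name. The 5904 genes off the primary chromosomes had 0 counts. Of the identifiers, 52181 matched a symbol. No libraries within a treatment agreed within sampling noise (smallest chi-square per gene 8.38).

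CPM and RPKM used library totals and deposited exon lengths. Tests used edgeR 4.0.16 (R 4.3.3) with TMM factors (0.883 to 1.10), filterByExpr, glmQLFit and glmQLFTest, and a threshold of 0.05 after Benjamini-Hochberg adjustment over 16926 genes. Fold changes are on the TMM scale, and with library totals the median of all genes shifts by -0.20 (log2). The tests were first tested on simulated data. Alternatives were DESeq2 size factors or library totals, DESeq2 1.42.0, limma 3.58.1 (voom), leave-one-out fits, filters on low values (1 count or more in some library, or 10 or more in each), thinning to the smallest total, a 2-fold threshold, and RPKM on TMM-scaled totals. Python 3.11.15, pandas 2.3.3 and matplotlib 3.10.9 made the tables and figures.

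All 10 early genes are named, with every related gene called at 2-fold or more and, for EGR1, NR4A1, KLF2 and IER3, the 2 genes of highest r (log2 CPM, prior count 2). Other related genes were named as examples after their values were seen. The genes and lists were chosen with earlier results of these data known, and the ratios, shares, motifs and ATTTA counts after the levels were seen. KLF14 had no row on the primary chromosomes and was left out. Single results of a few listed genes are not reported here.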

Additional observations from a re-analysis of the deposited data

How the results depend on the processing

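IER3, NR4A1, KLF2 and KLF6 kept their direction and call in all 13 alternatives, NR4A3 in the 12 and EGR2 in the 11 that tested them. The log2 fold changes ranged from 3.81 to 4.15 (IER3), -1.60 to -1.19 (NR4A1), -1.52 to -0.98 (KLF2), 0.44 to 0.70 (KLF6), 2.24 to 2.65 (NR4A3) and 3.61 to 4.62 (EGR2). EGR1, EGR2 and NR4A3 were not tested with at least 10 counts in every library, which leaves 2 genes called higher in place of 4, nor EGR2 after thinning. EGR1 was not called after thinning (-1.13, adjusted p = 0.0724 in edgeR's test), where fewer reads remain. With each library left out, EGR1 ranged from -1.65 to -1.06 and lost its call in 4 of 6 fits (adjusted p up to 0.0911 in edgeR's test), and NR4A2 ranged from -0.69 to -0.49 and lost it in 5. Called lower were then 2 to 4 of the early genes and 7 to 11 related genes, the fewest related genes without the GST-PTR1 library of 28837431 counts. Of all genes, 1549 were called higher and 1937 lower. With library totals these were 927 and 3795, with at least 1 count in any library 2608 genes were higher, and at 2-fold 623 were higher and 652 lower. Leaving out a library gave 1178 to 1818 genes lower. The fewest, 1178, 1212 and 1237, came without the GST-PTR1 libraries of 28837431 or 44688737 counts or the GST library of 23453473 counts. The order of mean RPKM held under TMM scaling, and other gene lengths were not tried. All 9 related genes named at 2-fold kept their direction and call in all 13 alternatives. No log2 fold change of these genes or of the early genes reversed. The small difference in the summed KLF level did change direction with TMM-scaled totals. No paired analysis was possible because the columns carry other numbers than the samples' labels. Depth limits EGR1, EGR2, EGR3 and KLF4 most, at 27 counts or fewer per library. NR4A3 was also low with GST, at 9, 25 and 29 counts.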
